A study of Mus musculus with 6 samples.

Results

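The genes described are the folding, translocation and stress-sensing machinery of the endoplasmic reticulum (ER): chaperones, disulfide and lectin enzymes, ER-associated degradation, the Sec61 translocon, signal peptidase, oligosaccharyltransferase, the stress sensors and the ER-Golgi cargo and retrieval receptors. They are a list of 54 genes chosen by name and function, of 46983 genes listed, and their Ensembl IDs were matched to symbols with GENCODE vM21. The expression values come from 6 bulk RNA-seq libraries of splenic B cells in culture, 3 labelled WT and 3 labelled *Hif1a* KO. In the KO mice, floxed *Hif1a* (*Hif1a* f/f) was deleted by *Mb1*-cre, a recombinase driven from the *Cd79a* locus and active throughout the B-cell lineage from its early stages, on a C57BL/6 background. The WT mice were littermates, either *Hif1a* f/+ with cre or *Hif1a* f/f without it, and the labels do not say which applies to which library, nor do they give an age or say whether replicates are separate animals. All cells, WT and KO alike, were cultured to day 3 under conditions that drive IgA class switching, with LPS at 5 μg/ml and the cytokines TGF-β, IL-5 and BAFF, each used at 10 ng/ml.

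Proteins destined for secretion, antibodies among them, enter the ER through the Sec61 channel, lose their signal peptide, receive N-linked glycans and fold with the help of chaperones and disulfide isomerases. Proteins that fail to fold are sent back to the cytosol and degraded. When unfolded protein accumulates, the sensors IRE1α (*Ern1*), ATF6 and PERK (*Eif2ak3*) start the unfolded protein response, in which spliced XBP1 and cleaved ATF6 raise the ER machinery and PERK acts through translation and ATF4. B cells that turn into plasma cells enlarge their ER in a programme that depends on XBP1.

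The promoters of some of these genes carry short elements through which the response acts, and matches to these are listed. Whether they bear on the order of libraries that most members shared was not tested. In the RefSeq promoters (GRCm38.p6, 250 bases before and 50 after each start), a promoter was found for 43 of the 54 members. The ER stress element ERSE (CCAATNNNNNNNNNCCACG, bound by ATF6 with NF-Y) was present on either strand in the promoter of 9 of these 43 genes, or 20.9%, against 37 of all 27025 genes with a promoter, or 0.137% (39 of 32851 promoters, or 0.119%). The matches are printed below in the direction of the element, with its fixed letters in capitals, and "with" or "against" tells its orientation relative to the gene.
*Hspa5*, chr2:34772025-34772043, with: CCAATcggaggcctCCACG
*Hsp90b1*, chr10:86705638-86705656, with: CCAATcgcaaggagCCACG
*Hsp90b1*, chr10:86705533-86705551, against: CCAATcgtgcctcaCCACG
*Dnajc3*, chr14:118937827-118937845, with: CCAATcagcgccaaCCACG
*Creld2*, chr15:88819520-88819538, against: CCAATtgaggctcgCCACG
*Calr*, chr8:84847075-84847093, against: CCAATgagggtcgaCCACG
*Canx*, chr11:50325800-50325818, with: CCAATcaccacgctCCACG
*Pdia6*, chr12:17266491-17266509, with: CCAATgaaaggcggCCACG
*Syvn1*, chr19:6046532-6046550, with: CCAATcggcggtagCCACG
*Derl3*, chr10:75893242-75893260, against: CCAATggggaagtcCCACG

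The element ERSE-II (ATTGG and CCACG with 1 base of any kind between them), which shares the letters CCACG with ERSE, was found in 3 members with a promoter (*Dnajb11*, *Herpud1* and *Krtcap2*; 6.98% of the 43, against 0.0444% of all genes with a promoter). The XBP1 element UPRE (TGACGTGG) was found in 1 member, *Kdelr3* (2.33% against 0.714%). The ATF4 element (TGATGNAA) was found in 2, *Herpud1* and *Kdelr1* (4.65% against 4.51%). All were searched on both strands. A match is a run of letters and was not tested for binding. *Derl3* had the largest KO minus WT difference among the members and *Creld2* the largest among the chaperones, and the 250 bases before the RefSeq start of each are shown with the ERSE in capitals, here in the direction of the gene.
*Creld2*, GRCm38.p6 chr15:88819396-88819645, + strand: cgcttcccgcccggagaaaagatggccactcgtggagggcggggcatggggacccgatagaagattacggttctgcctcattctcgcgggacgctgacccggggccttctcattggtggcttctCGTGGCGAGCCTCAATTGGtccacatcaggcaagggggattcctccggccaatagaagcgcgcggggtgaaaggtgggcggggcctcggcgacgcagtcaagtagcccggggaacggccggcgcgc
*Derl3*, GRCm38.p6 chr10:75893148-75893397, + strand: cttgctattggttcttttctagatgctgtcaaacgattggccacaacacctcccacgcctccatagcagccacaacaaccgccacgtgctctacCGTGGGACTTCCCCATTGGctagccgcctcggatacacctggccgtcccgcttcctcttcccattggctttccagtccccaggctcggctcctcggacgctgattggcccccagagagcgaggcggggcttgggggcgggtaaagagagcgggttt

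**Figure D1:**
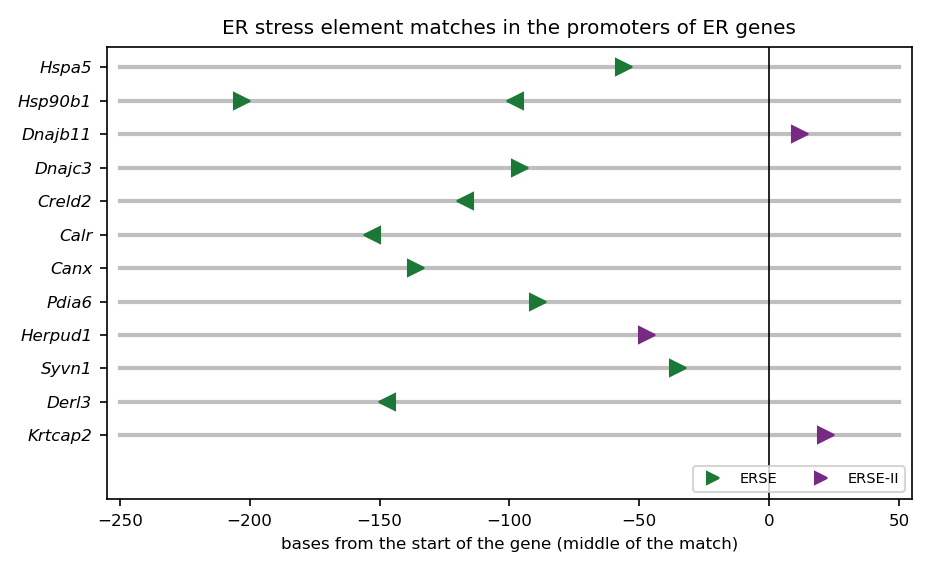
Position of each ERSE (green) and ERSE-II (purple) match in the RefSeq promoters of the 12 members that hold 1; the x axis is the distance in bases from the start of the gene, grey lines are the windows searched and arrowheads point in the direction of the element. All 10 ERSE matches lie before the start, and the ERSE-II matches of *Dnajb11* and *Krtcap2* lie just after it.

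The values are FPKM, fragments per kilobase of gene length scaled to library size, as deposited by the authors. The libraries held 25.0 to 37.2 M reads, recovered from the FPKM values, and each member tested had between 317 and 45892 reads in a library. *Hif1a* FPKM was 36.5, 49.8 and 45.8 in WT and 46.5, 45.6 and 52.8 in KO replicates 1, 2 and 3, so the deletion was not visible in a count over the whole gene, and whether the counted reads fall outside the deleted part is not given in the sources used here. All 10 B cell markers on the list passed the filter on low values, *Pax5* at 428.0 to 606.7 FPKM among them. *Cd79a*, at the locus that drives the cre, was at 1202.9, 739.1 and 779.0 in WT and 498.0, 1074.3 and 610.7 in KO libraries. Whether the cre genotype bears on this spread was not tested. Of the 12 macrophage markers, *Csf1r*, *Itgam*, *Fcgr1* and *Cd14* were at or below 1.05 FPKM in every library, while *Adgre1* and *Mpeg1* reached 91.1 and 95.3. Of the 8 T cell markers, *Cd3e*, *Cd4* and *Cd8a* were at or below 0.409, while *Lck* was at 90.1 to 136.9. Y-linked transcripts exceeded 0.079 FPKM in KO replicate 2 alone (*Ddx3y* 43.3, *Eif2s3y* 73.2 FPKM), so that library held male cells and differed in sex from the others. Whether this bears on its low ER levels was not tested. No gene of the 13312 tested (mean FPKM of at least 0.5) was called between KO and WT (limma, Benjamini-Hochberg adjusted p under 0.05), while 929 had an unadjusted p under 0.05. limma-voom on the recovered reads also called 0. WT replicate 1 stood apart from the other WT libraries, and 1251 genes were called without it, so calls are also given without that library. Where WT replicate 1 lay closer to the KO libraries than the other WT libraries did, leaving it out widens the difference. Calls of that fit are therefore no separate support.

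Among the ER genes, 53 of 54 were tested and none was called. None had an unadjusted p under 0.05 (against 6.98% of all genes tested), and none of the 53 had KO and WT libraries that did not overlap (against 10.1%). The differences were small. The log2 fold change, KO minus WT on the scale log2(FPKM + 1), ranged from -0.17 (*Edem1*) to 0.62 (*Derl3*) with a median of 0.085, while the median of all genes tested was -0.028. It was above 0 in 44 members and below 0 in 9, and 42.1% of all genes tested were above 0. The 95% interval lay within 0.5 of 0 in 39 members and excluded a change of 1 in either direction in 52, with *Derl3* as the exception. In bulk RNA, fewer cells of a type and less RNA per cell cannot be told apart. With median-ratio scaling, which moved the median of all genes from -0.028 to 0.011, 49 members were above 0, and with immunoglobulin genes removed 41 were. Without WT replicate 1, 46 members were above 0 (40.5% of all genes) and their median was 0.15, against -0.050 for all genes tested. Without KO replicate 3, by contrast, 31 members were above 0 and their median was 0.0074, against -0.021 for all genes. The median was also 0.18 without KO replicate 2 and 0.048 without WT replicate 3.

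**Figure D2:**
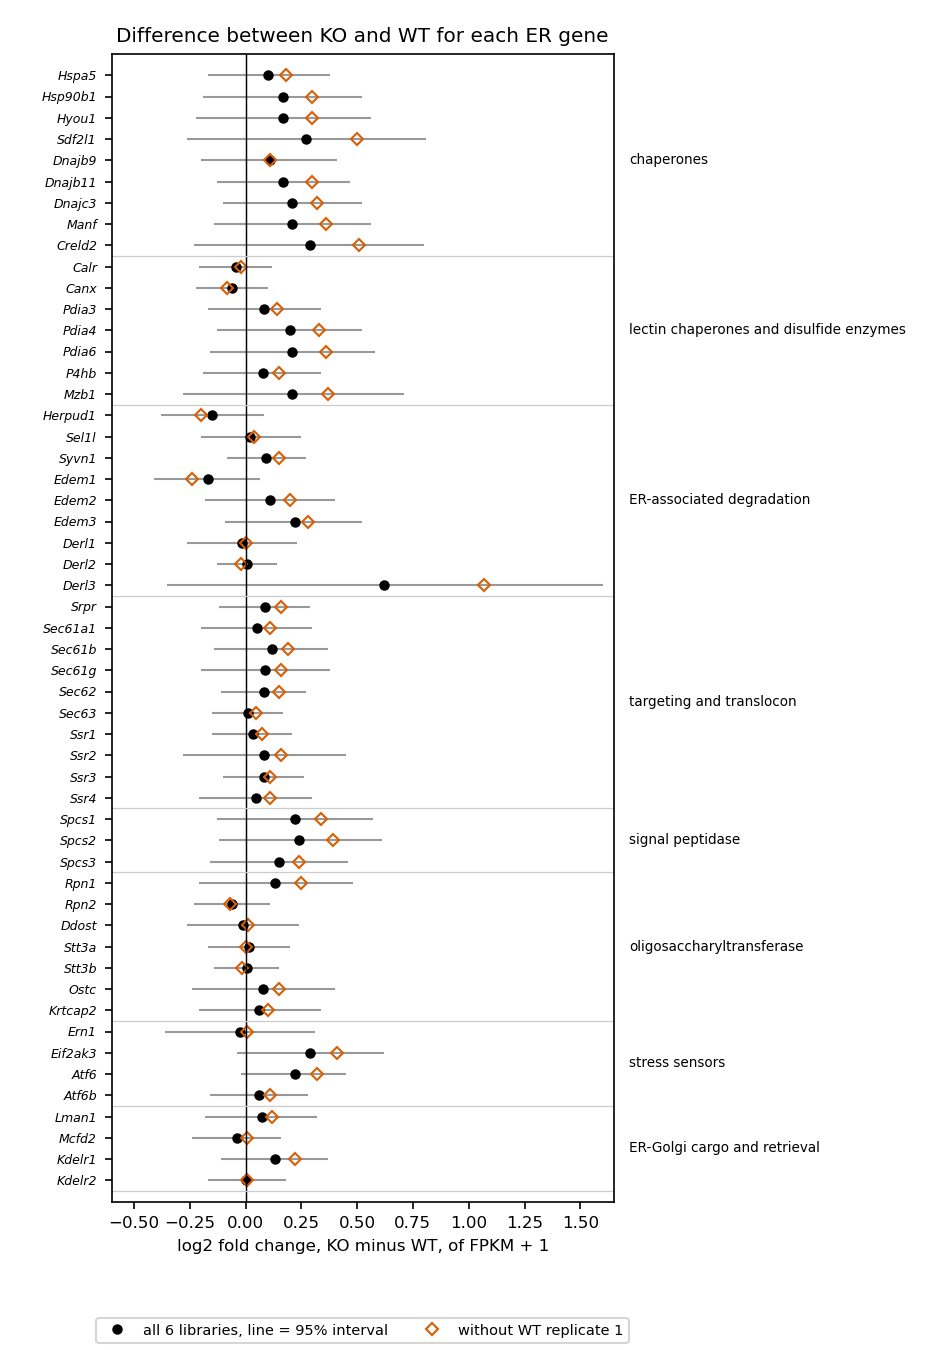
Log2 fold change (x axis, KO minus WT, of FPKM + 1) of the 53 members tested, by role: filled circles use all 6 libraries with the 95% interval as a line, and open diamonds leave out WT replicate 1. Every interval includes 0, most circles lie between -0.2 and 0.3, and *Derl3* has the widest interval (-0.35 to 1.60).

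For most members, as for most genes, the range within a genotype was larger than the difference of the group means. With 3 libraries per genotype, a range usually exceeds such a difference even where genotypes do not differ, so these counts are descriptive. The range of log2 values over the WT libraries was larger than the difference of the group means in 50 of 53 members (87.8% of all genes tested), and that over the KO libraries in 51 (75.5%). Members followed a shared order of libraries. WT replicate 1 was the highest WT library in 42 members (33.3% of all genes), KO replicate 3 was the highest KO library in 48 (34.5%) and the highest of all 6 libraries in 42 (19.1%), and KO replicate 2 was the lowest KO library in 47 (32%). The highest of the 6 was WT replicate 1 in 5 members (8.75%) and KO replicate 1 in 1 (11%). KO replicate 2 was below WT replicate 1 in 50 members (46.1%). Relative to each gene's mean, the median member stood at 0.092, -0.083 and -0.12 log2 units in WT replicates 1, 2 and 3 and at 0.058, -0.13 and 0.20 in KO replicates 1, 2 and 3. In reads, the 54 genes took 1.24%, 1.09% and 1.06% of the WT libraries and 1.21%, 1.06% and 1.33% of the KO libraries. The median member was thus above its mean in WT replicate 1 and KO replicates 1 and 3 and below it in the other three, and each of these sets holds both genotypes.

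**Figure D3:**
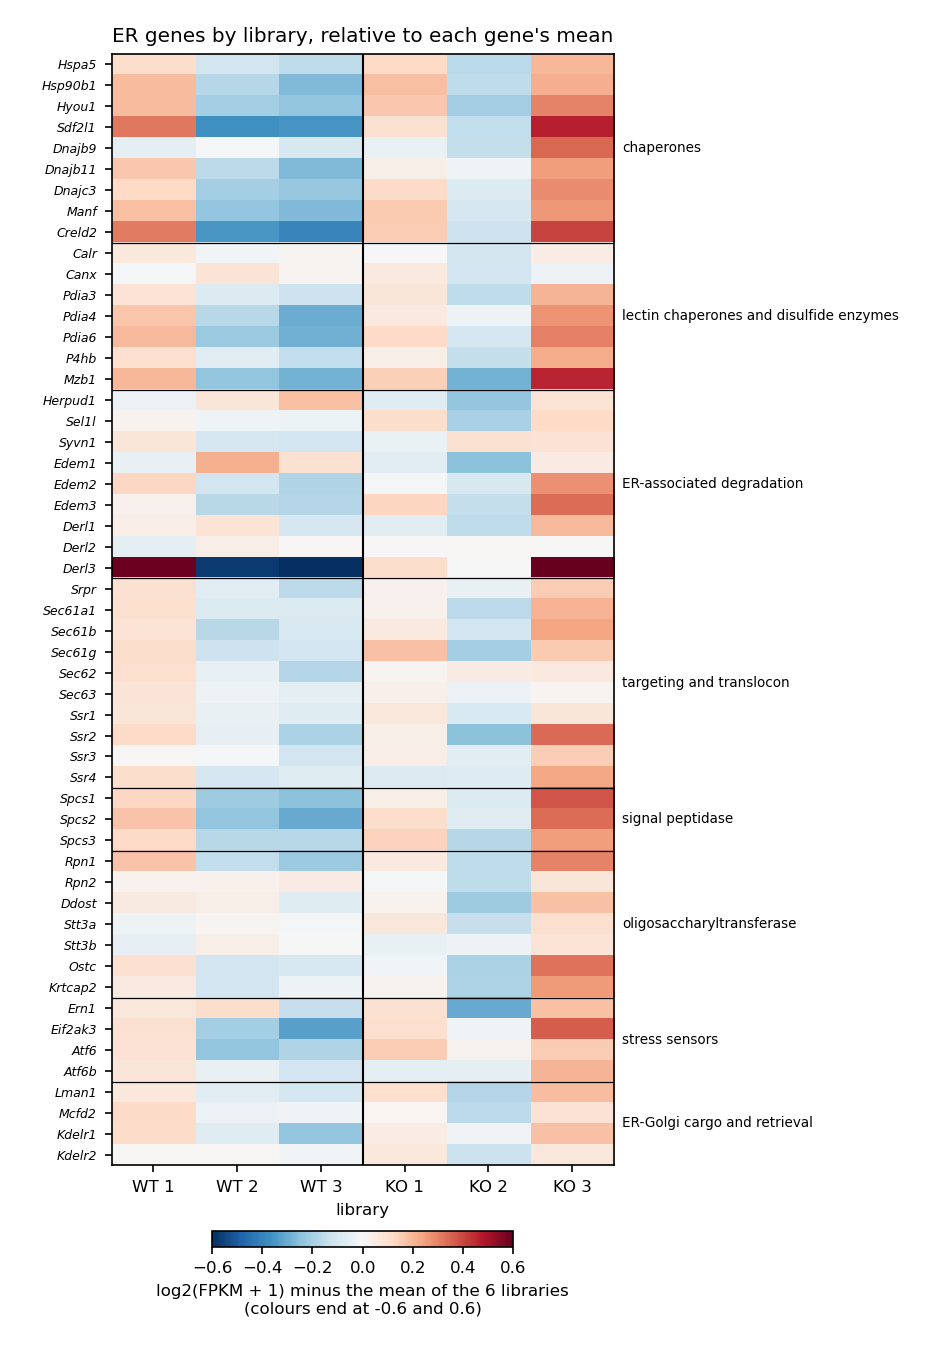
Each row is 1 of the 53 ER genes tested and each column a library; the colour is log2(FPKM + 1) minus the mean of that gene over the 6 libraries, from -0.6 (blue) to 0.6 (red), and values past these ends take the end colour. Most rows are red in WT 1 and KO 3 and blue in WT 2, WT 3 and KO 2, and the rows of *Herpud1*, *Edem1* and *Canx* do not follow that order.

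All 9 luminal chaperones were above 0, none passed the test, and their median log2 fold change was 0.17. That median was 0.30 when WT replicate 1 or KO replicate 2 was left out and 0.091 when WT replicate 3 was. BiP (*Hspa5*, chr2:34771970-34777547 on mm10), the Hsp70 chaperone of the ER that also holds the sensors inactive, stood at 654.5, 564.0 and 548.4 FPKM in WT replicates 1, 2 and 3 and at 661.8, 544.1 and 698.0 in KO replicates 1, 2 and 3. Its lowest value and its highest both came from KO libraries, and the means were 589.0 ± 57.3 in WT and 634.6 ± 80.4 in KO (SD, n = 3 each). The log2 fold change was 0.10 (SE 0.12, limma, Benjamini-Hochberg adjusted p = 0.754), or 0.18 without WT replicate 1. GRP94 (*Hsp90b1*), the ER member of the Hsp90 family, was at 419.5, 326.5 and 305.7 FPKM in WT and 417.5, 330.5 and 428.2 in KO libraries. The WT replicate 1 value was again close to those of KO replicates 1 and 3, and the log2 fold change of 0.17 became 0.30 without that library.

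*Creld2* and *Sdf2l1*, stress-inducible ER proteins of which the latter works with the co-chaperone DNAJB11, had the widest spread among the chaperones. *Creld2* read 74.7, 46.9 and 45.4 FPKM in WT and 66.7, 54.9 and 79.8 in KO libraries. *Sdf2l1* read 94.7, 58.5 and 59.1 in WT and 81, 68.5 and 105.1 in KO libraries. For both, WT replicate 1 lay above 2 of the 3 KO libraries, and both KO replicate 2 values lay above those of WT replicates 2 and 3. The log2 fold changes were 0.29 (SE 0.22) for *Creld2* and 0.27 (SE 0.23) for *Sdf2l1*, and without WT replicate 1 they were 0.51 and 0.50, with adjusted p of 0.0832 and 0.114 in limma. The other 5 genes of the group, *Hyou1* (the nucleotide exchange factor of BiP), *Dnajb9*, *Dnajb11*, *Dnajc3* (ER J-domain partners of BiP) and *Manf*, had log2 fold changes of 0.11 to 0.21.

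Among the lectin chaperones and disulfide enzymes, 5 of 7 were above 0 and the median log2 fold change was 0.083, or from 0.0011 (without KO replicate 3) to 0.18 (without KO replicate 2) with 1 library left out. Calreticulin (*Calr*), which with calnexin retains glycoproteins until they are folded, had the highest FPKM of all members, 1048.4, 991.3 and 1011.9 in WT and 1004.4, 927.9 and 1032.5 in KO libraries. These 6 values lay close together, and the log2 fold change was -0.043 (SE 0.07, 95% interval -0.21 to 0.12), with the opposite sign under median-ratio scaling (0.0027). Calnexin (*Canx*) was at -0.060. The protein disulfide isomerases, which form and rearrange the disulfide bonds of antibodies among other proteins, ran from 0.077 (*P4hb*) over 0.083 (*Pdia3*) and 0.20 (*Pdia4*) to 0.21 (*Pdia6*). *Mzb1*, an ER protein of B cells that assists antibody assembly, had FPKM of 691.2, 509.5 and 494.1 in WT and 664.6, 494.2 and 826.1 in KO libraries. KO replicate 2 was level with WT replicate 3 and KO replicate 3 exceeded every other library, and the log2 fold change was 0.21 (SE 0.21), with 0.37 without WT replicate 1 and 0.038 without KO replicate 3.

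The ER-associated degradation genes were the most varied group, 6 of 9 above 0 with a median of 0.021, and held both ends of the range. That median ran from 0.0041 without KO replicate 3 to 0.070 without KO replicate 2. Derlin-3 (*Derl3*, chr10:75893413-75895941 on mm10), a channel component strongly expressed in secretory cells, was at 28.5, 12.2 and 9.14 FPKM in WT and 20.1, 18.6 and 34 in KO libraries, which rest on 317 to 1419 reads. WT replicate 1 exceeded KO replicates 1 and 2, and the other WT libraries lay below all KO libraries. With all libraries, *Derl3* had a log2 fold change of 0.62 (SE 0.41, limma, adjusted p = 0.651) and of 1.07 (SE 0.27, adjusted p = 0.0593) without WT replicate 1. Its relatives *Derl1* and *Derl2* were at -0.015 and 0.0055.

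*Herpud1* and *Edem1* ran against the chaperones in the order of the WT libraries only. Among the KO libraries, replicate 3 was highest and replicate 2 lowest for both, as for all 9 chaperones. *Herpud1*, a stress-induced partner of the HRD1 ligase, was at 122.9, 132.4 and 142.7 FPKM in WT and 119.5, 107.1 and 133.4 in KO libraries. *Edem1*, which trims mannose from misfolded glycoproteins, was at 105.1, 126.2 and 115.6 in WT and 103.9, 91.4 and 112.3 in KO libraries. Their highest values came from WT replicates 3 and 2, in which most chaperones were low, and their log2 fold changes were -0.15 (SE 0.10) and -0.17 (SE 0.10), or -0.20 and -0.24 without WT replicate 1. The ligase HRD1 itself (*Syvn1*) was at 148.1, 131.1 and 130.0 in WT and 137.0, 150.1 and 149.2 in KO libraries (log2 fold change 0.093), and its adaptor *Sel1l* was at 0.021. The mannosidase-like *Edem2* and *Edem3* were at 0.11 and 0.22.

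**Figure D4:**
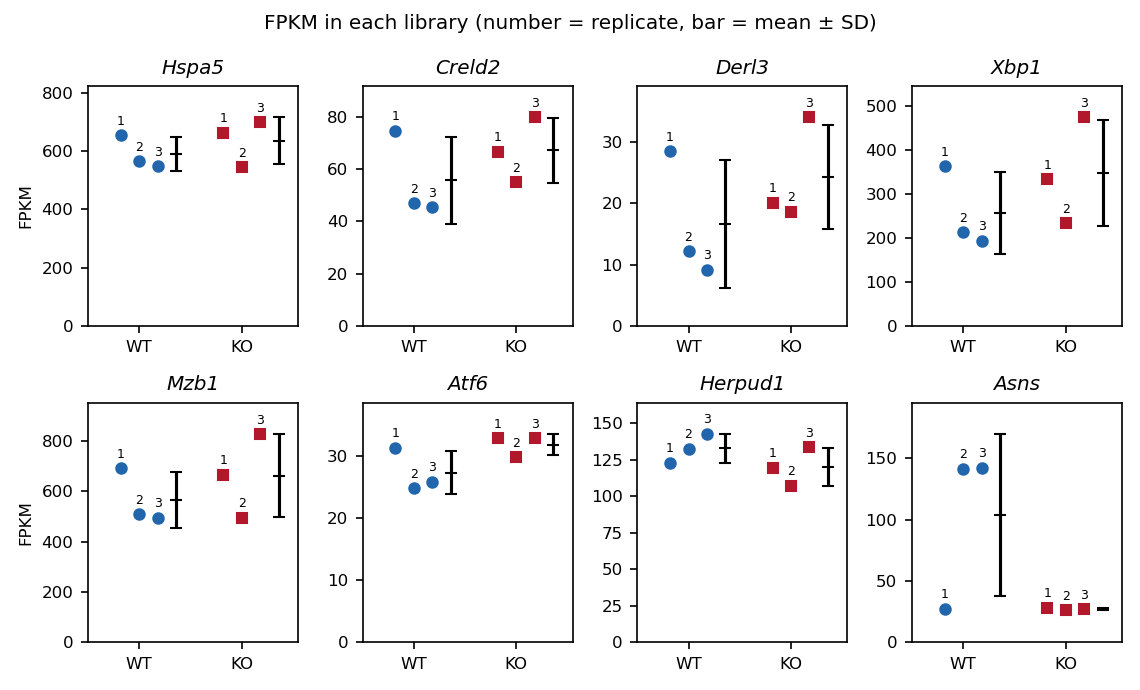
FPKM (y axes, from 0) in the WT (blue circles) and KO (red squares) libraries for 6 members, *Xbp1* and *Asns*; numbers are replicates and the black bar beside each group is its mean ± SD (n = 3). WT replicate 1 lies nearer KO replicate 1 than the other WT libraries for *Hspa5*, *Creld2*, *Mzb1* and *Xbp1*, *Herpud1* is highest in WT replicate 3, and *Asns* is at 141.8 and 142.5 in WT replicates 2 and 3 and at 28.4 or less in the other libraries.

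Each of the 10 targeting and translocon genes was above 0, but by little, from 0.0095 (*Sec63*) to 0.12 (*Sec61b*) with a median of 0.082 (0.016 without KO replicate 3, with 7 of 10 above 0, and 0.13 without WT replicate 1). The channel subunit *Sec61b* was at 240.1, 202.3 and 212.9 FPKM in WT and 236.6, 209.8 and 267.5 in KO libraries. The pore-forming subunit *Sec61a1* was at 213.5, 188.6 and 187.9 in WT and 203.5, 179.2 and 231.3 in KO libraries. In both, KO replicate 2 lay below WT replicate 1 and KO replicate 3 was highest. The log2 fold changes were 0.12 (SE 0.11) and 0.052 (SE 0.11), and that of *Sec61a1* turned to -0.040 without KO replicate 3. The rest were *Sec61g*, the receptor subunit *Srpr*, the channel partners *Sec62* and *Sec63*, and the translocon-associated *Ssr1* to *Ssr4*, and all of these lay between 0.0095 and 0.088.

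The 3 signal peptidase genes, whose complex cleaves the signal peptide, had the highest median of the role groups, 0.22 (0.34 without WT replicate 1 and 0.087 without KO replicate 3). *Spcs1* was at 99.6, 78.6 and 76.7 FPKM in WT and 93.4, 86.1 and 118.8 in KO libraries. *Spcs2* was at 80.5, 60.4 and 57.6 in WT and 76.8, 67.8 and 90.3 in KO libraries. WT replicate 1 again lay above KO replicates 1 and 2, and the log2 fold changes were 0.22 and 0.24 (SE 0.15 each). *Spcs3* was at 0.15. The catalytic subunits *Sec11a* and *Sec11c*, which are not members, were at 0.13 and 0.14.

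The oligosaccharyltransferase, which attaches N-linked glycans, showed the smallest median of the role groups, 0.014, with 5 of 7 genes above 0. Without KO replicate 3 the median turned to -0.051 with 1 of 7 above 0, and without KO replicate 2 it was 0.092. *Rpn1* was at 212.8, 170.2 and 161.5 FPKM in WT and 196.8, 169.6 and 232.2 in KO libraries (log2 fold change 0.13, SE 0.14). *Rpn2*, which encodes another subunit of the same complex, was at 174.9, 175.4 and 178.5 in WT and 171.4, 154.9 and 181.2 in KO libraries (-0.062, SE 0.07). *Rpn1* thus ranged over 0.40 log2 units in the WT libraries and *Rpn2* over 0.03. The catalytic *Stt3a* and *Stt3b* were at 0.014 and 0.0044, and *Ddost*, *Ostc* and *Krtcap2* at -0.013, 0.080 and 0.062.

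Of the 4 stress sensors, PERK (*Eif2ak3*) and *Atf6* had the lowest adjusted p of all members with all libraries, 0.626 for each in limma, a value that many genes shared. *Atf6*, whose product is cut in the Golgi to release a transcription factor, was at 31.3, 24.8 and 25.8 FPKM in WT and 32.8, 29.8 and 32.8 in KO libraries. *Eif2ak3*, a kinase that halts translation under ER stress, was at 48.3, 39.2 and 35.9 in WT and 48.6, 44.6 and 58.5 in KO libraries. Only WT replicate 1 overlapped the KO libraries for either gene. The log2 fold changes were 0.22 (SE 0.10) for *Atf6* and 0.29 (SE 0.14) for *Eif2ak3*. Without WT replicate 1, *Atf6* was the only member called, with 0.32 (SE 0.07, adjusted p = 0.0441, limma with Benjamini-Hochberg adjustment), and 1 of 53 members compares with 9.4% of all genes called in that fit (3.64% higher in KO). *Eif2ak3* was then at 0.41 (adjusted p = 0.0832).

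The IRE1α gene *Ern1* and the second ATF6 gene *Atf6b* did not share this. *Ern1*, whose product splices *Xbp1* mRNA, was at 10.6, 10.9 and 9.04 FPKM in WT and 10.8, 7.97 and 11.5 in KO libraries. *Atf6b* was at 76.8, 70.8 and 67.3 in WT and 70.2, 70.3 and 84.2 in KO libraries. Their log2 fold changes were -0.023 (SE 0.14) and 0.060 (SE 0.09), and that of *Ern1* was above 0 after quantile normalization (0.012) or median-ratio scaling (0.018).

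Of the ER-Golgi genes, 3 of 4 tested were above 0, with a median of 0.037, which turned to -0.016 without KO replicate 3 with 1 of 4 above 0. *Kdelr1*, a receptor that returns escaped chaperones to the ER, was at 79.9, 70.4 and 62.7 FPKM in WT and 76.3, 73 and 83.9 in KO libraries (log2 fold change 0.13, SE 0.10). *Lman1*, which with *Mcfd2* carries glycoproteins to the Golgi, was at 55.5, 50.8 and 49.3 in WT and 57.1, 46.9 and 60.5 in KO libraries (0.073, SE 0.11). *Mcfd2* and *Kdelr2* were at -0.038 and 0.0023. *Kdelr3* was the 1 member that was not tested, with 0.16 to 0.474 FPKM or 7 to 20 reads per library. Its KO values of 0.391 to 0.474 all lay above its WT values of 0.16 to 0.272, but at this depth they rest on few reads.

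The members with an ERSE in the promoter had log2 fold changes of -0.06 to 0.62 with a median of 0.17 (9 genes), and those searched and tested without one -0.17 to 0.29 with a median of 0.08 (33 genes). The ranges overlapped. *Calr* and *Canx*, which hold an ERSE, were below 0, and *Spcs2*, *Eif2ak3* and *Manf* were at 0.21 or more although the first 2 had no ERSE in the window and *Manf* had no promoter in the table. No test was run on this difference, since the members share libraries and are not replicates.

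The remaining ER genes, a list of 50 of which 48 were tested, followed the members. Their median log2 fold change was 0.083 and 33 of 48 were above 0, with none called and 1 with an unadjusted p under 0.05 (*Ero1b*). *Xbp1*, the transcription factor of the plasma cell ER, was at 363.3, 213.3 and 193.4 FPKM in WT and 333.5, 233.3 and 474.1 in KO libraries, with KO replicate 3 highest and WT replicate 3 lowest as for *Mzb1*. The values count both forms of its mRNA and do not show splicing. The disulfide oxidases split by gene. *Ero1b* was at 47.1, 28.9 and 26.6 in WT and 45.1, 43.9 and 52.7 in KO libraries (0.50), while *Ero1a*, a known HIF-1 target, was at 9.03, 12.4 and 12.6 in WT and 9.79, 9.32 and 9.16 in KO libraries (-0.23). Without WT replicate 1, 4 genes of this list were called, *Ero1b* (0.74), *Txndc5* (0.69) and *Tram1* (0.26) higher and *Ero1a* (-0.38) lower in KO. In that fit 4 of 48 is below the 9.4% of all genes called, of which 3.64% were higher and 5.75% lower in KO. The median of the list was then 0.15, and without KO replicate 3 it was 0.020.

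The ATF4 side of the response had another order of libraries. All 10 genes of the PERK-ATF4 list were below 0 (median -0.92), 6 had an unadjusted p under 0.05 (4.5% of all genes tested were below 0 with such a p) and none was called. *Asns*, the asparagine synthetase gene and a target of ATF4, was at 27.5, 141.8 and 142.5 FPKM in WT and 28.4, 26.5 and 27 in KO libraries. *Atf4* was at 148.5, 229.2 and 233.3 in WT and 144.3, 132.5 and 136.1 in KO libraries, and *Trib3* at 1.96, 20.5 and 18.9 in WT and 2.5, 2.29 and 2.5 in KO libraries. These genes were high in WT replicates 2 and 3 alone. So were *Nupr1*, a stress-induced chromatin factor at 1.47, 10.2 and 8.59 in WT and 1.27, 0.828 and 0.914 in KO libraries, and *Chac1*, which degrades glutathione, at 2.28, 12 and 12.9 in WT and 2.76, 2.04 and 2.68 in KO libraries. *Ddit3*, the gene of the stress factor CHOP, differed less, with 23, 27 and 27 in WT and 17.2, 21.5 and 24.5 in KO libraries. *Ppp1r15a* of the same list did not follow, at 9.56, 9.67 and 8.75 in WT and 10.5, 8.08 and 8.17 in KO libraries. Its log2 fold change was -0.066, and that of *Eif2s1* was -0.13. Whether PERK activity differed between the libraries was not tested. Without WT replicate 1, 7 of the 10 were called lower in KO, against 5.75% of all genes called lower in that fit. Since *Asns* and *Trib3* in WT replicate 1 were near their KO values, leaving that library out removes the overlap, and these calls are no separate support. *Eif2ak3*, which lies upstream of *Atf4*, was lowest in the 2 libraries in which the ATF4 targets were highest.

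**Figure D5:**
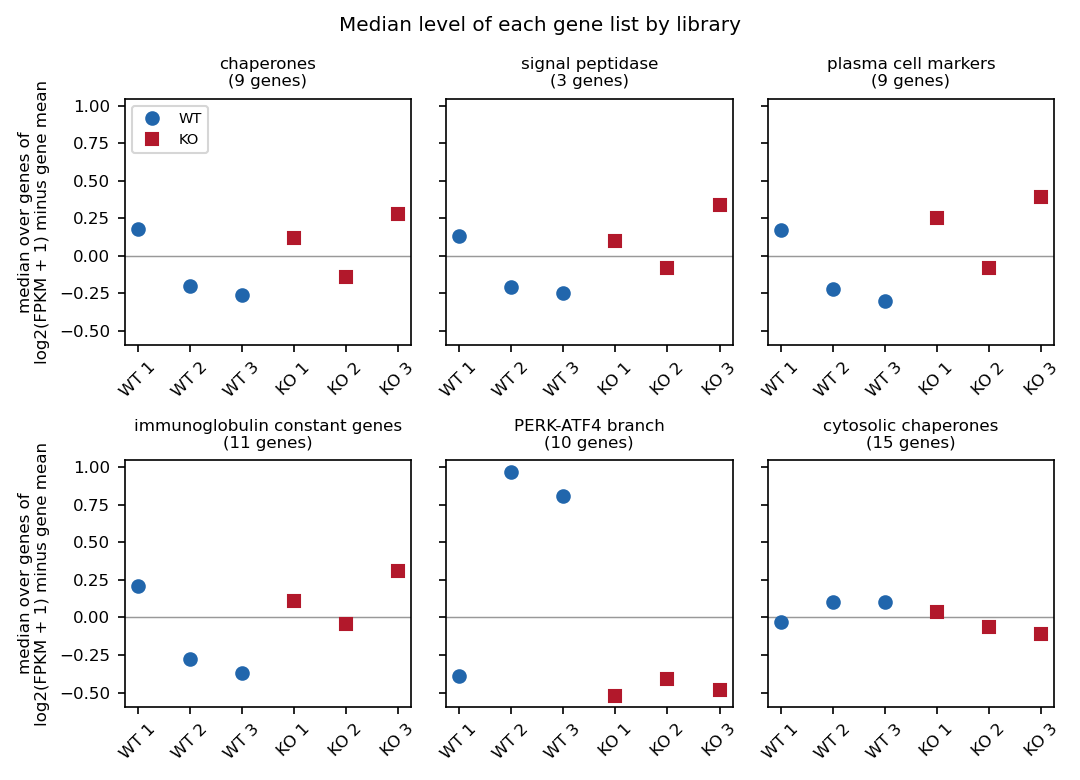
Median over the genes of each list of log2(FPKM + 1) minus the gene's mean (y axis) in the WT (blue circles) and KO (red squares) libraries. Chaperones, signal peptidase, plasma cell markers and immunoglobulin constant genes are above 0 in WT 1, KO 1 and KO 3, and the PERK-ATF4 list is above 0 in WT 2 and WT 3 only (0.97 and 0.81).

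The medians of the plasma cell markers and immunoglobulin constant genes stood above the gene mean in the same libraries as that of the ER genes. The match was loose in KO replicate 2. There the median ER member was lowest, at -0.13 log2 units, while both other medians were higher than in WT replicates 2 and 3. Of the genes tested, 8 of 9 plasma cell markers and 9 of 11 immunoglobulin constant genes were above 0 (42.1% of all genes). The median plasma cell marker, over 9 of 10 tested, stood at 0.17, -0.22 and -0.30 log2 units in WT and at 0.25, -0.081 and 0.39 in KO libraries, and the summed FPKM of the list ran from 353.4 to 554.4 in WT and from 423.6 to 688.5 in KO libraries. *Jchain*, which joins IgA and IgM chains, was at 181.7, 90.5 and 84 FPKM in WT and 173.4, 141.9 and 220.3 in KO libraries, and *Prdm1*, the plasma cell regulator Blimp-1, at 40, 17.1 and 16.7 in WT and 41.3, 29.2 and 55.9 in KO libraries. Of the defining markers, *Tnfrsf17* was at 0.179 FPKM or less and *Sdc1* at 2.68 to 4.67. *Sdc1* did not follow the list, as it was highest in WT replicate 1, lowest in KO replicate 1 and had a log2 fold change of -0.14. The immunoglobulin constant genes, over 11 of 12 tested, stood at 0.21, -0.28 and -0.37 in WT and 0.11, -0.041 and 0.31 in KO libraries, with a summed FPKM of 11464.6 to 18353.0 in WT and 14784.0 to 18613.5 in KO libraries. Without WT replicate 1, 3 plasma cell markers (*Jchain*, *Prdm1* at a log2 fold change of 1.22 and *Eaf2* at 0.77) and 4 immunoglobulin constant genes were called higher in KO, against 3.64% of all genes.

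The median macrophage marker moved with the ATF4 genes, high in WT replicates 2 and 3, and 5 of the 6 markers tested were lower in KO. *Mrc1* did not follow (log2 fold change 0.071), at 0.938, 1.04 and 0.714 FPKM in WT and 0.966, 0.884 and 1.12 in KO libraries. Nor did *Itgam*, which was not tested, at 0.227, 0.205 and 0.0678 in WT and 0.211, 0.236 and 0.13 in KO libraries. The summed FPKM of the list, of which 6 of 12 were tested, was 122.3, 265.9 and 205.5 in WT and 116.7, 149.3 and 119.2 in KO libraries. *Adgre1*, the highest gene of the list, was at 59.8, 91.1 and 81.1 in WT and 67.7, 69.7 and 55.5 in KO libraries. *Lyz2*, the lysozyme gene of myeloid cells, was at 6.18, 58.3 and 26.2 in WT and 0.6, 2.23 and 3.7 in KO libraries. Its WT values all lay above its KO values, with a log2 fold change of -2.97 (SE 0.77, limma, adjusted p = 0.626), and without WT replicate 1 it was 1 of 2 macrophage markers called lower in KO (5.75% of all genes were). The part of these cell types in the differences between ER genes was not tested.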

How the data were processed

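Per the paper's methods, the authors filtered the reads, aligned them to mm10 with TopHat, counted reads per gene with HTSeq and deposited FPKM values, 1 column per library. The annotation release, strand option and handling of multiply aligned reads are not given in the sources used here, so overlapping genes and near-identical copies are uncertain. All 6 per-sample columns were used (0 columns belonged to no sample). GENCODE vM21 held 46488 of 46983 gene IDs. The gene lengths behind the FPKM had a median ratio to the summed exons of 0.41, so the order of levels between genes depends on them.

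Whole reads were recovered from the FPKM for 25717 of 25717 genes above 0 (tolerance 0.02 reads), giving 25.0 to 37.2 M reads per library; 1 read on 1 kb is worth 0.027 to 0.040 FPKM. Differences were tested with limma 3.58.1 (R 4.3.3, mean-variance trend) on log2(FPKM + 1), pseudocount 1, mean FPKM of at least 0.5, no covariates, Benjamini-Hochberg adjusted p under 0.05 over 13312 genes. The method was tested on simulated data. Their noise was drawn separately for each gene and library, so that test does not cover shifts that the genes of a library share. Nothing states that replicates came from separate animals or cultures, so p-values measure the spread between these libraries, and 3 against 3 allows an exact permutation p of no less than 0.1. Alternatives were another pseudocount, 2 other filters, median-ratio, quantile and immunoglobulin-free scaling, robust eBayes, the replicate block, each library left out, and limma-voom on the recovered reads.

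The members, the lists and their roles were chosen with earlier results of these data known, and no list was tested. Genes named with values in every library were the 2 members of each role group with the highest mean FPKM, the 4 stress sensors, and, from the other lists, *Xbp1*, *Ero1a*, *Atf4*, *Ddit3*, the highest plasma cell and macrophage marker and the 5 genes with the largest log2 fold changes among those called without WT replicate 1. *Derl3*, *Creld2*, *Sdf2l1*, *Edem1*, *Ero1b*, *Txndc5*, *Tram1*, *Prdm1*, *Eaf2*, *Kdelr3*, *Ppp1r15a*, *Eif2s1* and the Y-linked and other marker genes were named after their values were seen. *Ero1a* was matched under its older symbol *Ero1l*, and *Hm13* and *Pdia5* of the other ER genes were not tested. The replicate numbers did not pair the samples (correlations of WT and KO deviations of -0.10, 0.14 and -0.28 for replicates 1, 2 and 3). Reads were recovered and figures drawn with numpy 2.4.6, pandas 2.3.3 and matplotlib 3.10.9 under Python 3.11.15.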

Additional observations from a re-analysis of the deposited data

How the results depend on the processing

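Of the gene values recomputed under each alternative, 592 kept their sign and their side of the threshold, 12 became called and 10 changed sign. Of the summaries, 172 were unchanged counts or medians that moved by less than the spread between libraries, and 8 counts moved from 0. No median of the members or of a role group moved by more than the spread between libraries, taken as the SD of the list's median within a genotype. Leaving out 1 of 3 libraries can hardly move a median by that much, so this does not show that the medians are stable. The count of genes called was 0 under every alternative with all 6 libraries and ranged from 0 to 1251 with a library left out (1251 without WT replicate 1 and 1 without KO replicate 1), and that of members called ranged from 0 to 1 (*Atf6*, without WT replicate 1). The members whose groups did not overlap numbered 1 (1.89%) with median-ratio scaling, against 10.2% of all genes, and ranged from 0 to 21 with a library left out. They were 21 (39.6%) without WT replicate 1, against 50.5% of all genes, 11 (20.8%) without KO replicate 2, against 21.3%, 3 (5.66%) without KO replicate 3, against 19.2%, and 2 (3.77%) without KO replicate 1, against 20.1%. The log2 fold change of *Calr* was 0.0027 with median-ratio scaling and ranged from -0.075 to 0.0021 with a library left out. That of *Ern1* was 0.012 after quantile normalization and 0.018 with median-ratio scaling, and ranged from -0.12 to 0.12. The ranges of *Atf6b* (-0.026 to 0.11), *Lman1* (-0.00092 to 0.18) and *Sec61a1* (-0.040 to 0.14) crossed 0 without KO replicate 3. The median of all members kept its direction and ranged from 0.0074 without KO replicate 3 to 0.18 without KO replicate 2. Without KO replicate 3 the medians of the oligosaccharyltransferase (-0.051) and ER-Golgi genes (-0.016) turned below 0. The cause was not tested. With the replicate block, 0 genes and 0 members were called; the numbers are shared labels and do not pair the samples. Each of the 53 members tested rested on at least 317 reads in every library, and *Kdelr3* on 7 to 20.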

Other observations

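The chaperones of the cytosol did not follow those of the ER. Of 15 tested, 1 was above 0 in the KO minus WT comparison (4 with median-ratio scaling), against 42.1% of all genes tested, and the median log2 fold change was -0.091. None was called in limma, 2 had an unadjusted p under 0.05 (*Hspa1b* and *Cct7*, lower in KO, as were 4.5% of all genes), and both were called lower in KO without WT replicate 1 (5.75% of all genes). *Hspa1b*, a heat-inducible Hsp70 whose reads may be shared with its near-identical copy *Hspa1a*, was at 0.335, 3.15 and 2.03 FPKM in WT and 0.428, 0.208 and 0.275 in KO libraries. *Cct7*, a subunit of the chaperonin that folds actin and tubulin, was at 181.3, 206.5 and 206.2 in WT and 178.5, 171.4 and 174.6 in KO libraries. *Hsp90ab1*, the constitutive cytosolic Hsp90, was at 3637.7, 4095.0 and 4131.0 in WT and 3759.6, 3525.4 and 3220.1 in KO libraries, so that it was lowest in KO replicate 3, where most ER chaperones were highest. These genes were named after their values were seen.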
